A study of Arabidopsis thaliana with 12 samples.

Results

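FBN2 (AT2G35490), FBN6 (AT5G19940) and the plastoglobule protein PG18 (AT4G13200) are 3 nuclear genes of Arabidopsis thaliana whose products work in the chloroplast. They are 3 of the 689 genes that have a probe of their own on an array of 3439 probes. Each is read by 1 probe whose annotation names that gene alone, so the choice of the brightest probe per gene left nothing to choose between. The genes were picked with the prors1 to WT values of this same series known. Their levels and log2 ratios are therefore given as a description, without p-values.

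Fibrillins are lipid-associated proteins of plastids with a lipocalin-like fold. Several of them coat plastoglobules, the lipid droplets attached to thylakoid membranes that store prenylquinones, tocopherols and carotenoid derivatives, and others lie on the thylakoid or in the stroma. In Arabidopsis leaves the plastoglobule fibrillins are known for their part in photoprotection and in jasmonate production under light and cold stress.

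The mutant plants, titled prors1, are described in the labels as a mutant without prolyl-tRNA synthetase, which charges the proline tRNA for protein synthesis. The plants they were set against are titled WT, of the Columbia 0 accession, and both groups were kept in darkness overnight. The question put to the arrays is which transcripts are more or less abundant in the mutant in the dark. The labels name neither the tissue nor the plant age, the allele or the number of plants behind a sample. The source label describes WT for all 12 samples, so the groups rest on the titles. The mutated gene, PRORS1, is named on 0 probes, and its level was not analysed here. There were 6 columns of total RNA intensities per group. Columns 1 and 2, 3 and 4, and 5 and 6 of a group correlated more closely with each other than with the rest of their group. Each such pair is counted here as 1 array with the mean of its columns, 3 arrays per group. This rests on the correlations, since the labels do not say which columns share an array. The labels do not tell whether different plants were used for the arrays. The errors therefore cover array-to-array spread alone, part or all of it possibly technical. The SE of a log2 ratio is limma's moderated standard error, which draws the spread of each probe towards that of all fitted probes.

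Deposited intensities are on a linear scale that ends at 100, in a unit that stays unknown. The median of the values above 0 was 0.407 to 0.520 per prors1 column and 0.224 to 0.289 per WT column, so most probes read higher in prors1 as deposited. The median log2 ratio of the 2908 tested probes was 0.77 as deposited and -0.06 after quantile normalization, which gives all columns the same distribution. Of the 10 tissue marker genes listed, 0 had a probe of their own. In RNA extracted in bulk, fewer cells of a type and less RNA per cell cannot be told apart.

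FBN2 encodes a fibrillin of plastoglobules. On the deposited scale its intensity was 0.293, 0.254 and 0.240 on prors1 arrays 1 to 3, against 0.313, 0.369 and 0.311 on WT arrays 1 to 3. Every prors1 array lay below every WT array, by a small margin. The means were 0.262 ± 0.028 in prors1 and 0.331 ± 0.033 in WT (SD, n = 3 arrays each).

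Because most other probes read higher in prors1, the place of FBN2 within each column moved further than its intensity. Its percentile among the probes above 0 in the same column was 17.8 to 25.6 in the 6 prors1 columns, with a median of 23.65. In the 6 WT columns it was 52.5 to 65.2, with a median of 62.85. FBN2 thus stood among the dimmer probes in every prors1 column and above the middle in every WT column. This rank does not depend on a scaling of the whole column by a common factor. Quantile normalization rests on the same ranks, so the percentile and the normalized ratio are not separate results. Its log2 ratio, prors1 over WT, was -1.26 ± 0.21 (SE, 3 arrays per group) after quantile normalization, or 2.40-fold lower relative to the other probes. On the values as deposited the log2 ratio was -0.33 ± 0.26 (SE). Of all tested probes, 6.19% had a lower ratio after normalization and 9.53% as deposited.

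The columns of 1 array gave similar FBN2 readings, with one exception. They differed by 1.04-fold to 1.20-fold on the 3 prors1 arrays and by 1.06-fold on WT arrays 1 and 3. On WT array 2 they differed by 1.45-fold, with an intensity of 0.302 in column 3 and 0.437 in column 4. Without WT column 4 the log2 ratio of FBN2 was -1.20 after quantile normalization.

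FBN6 encodes a thylakoid-associated fibrillin that has been tied to the handling of reactive oxygen species in Arabidopsis. Its deposited intensity was 0.157, 0.115 and 0.0900 on prors1 arrays 1 to 3, against 0.113, 0.185 and 0.158 on WT arrays 1 to 3. The groups overlapped on this scale, since WT array 1 lay below prors1 arrays 1 and 2. The means were 0.121 ± 0.034 in prors1 and 0.152 ± 0.037 in WT (SD, n = 3 arrays each).

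Within its column FBN6 lay near the bottom in prors1. Its percentile was 1.72 to 10.2 in the 6 prors1 columns, with a median of 6.19, against 19.9 to 44.5 in the 6 WT columns, with a median of 26.9. These ranges did not overlap. The log2 ratio was -1.57 ± 0.28 (SE, 3 arrays per group) after quantile normalization, or 2.97-fold lower relative to the other probes, and -0.42 ± 0.34 (SE) as deposited. Of all tested probes, 3.37% had a lower ratio after normalization and 7.77% as deposited.

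The FBN6 readings differed most between columns of 1 array. Columns 5 and 6 of prors1 array 3 read 0.140 and 0.0396, a 3.54-fold difference, and columns 5 and 6 of WT array 3 differed by 1.68-fold. The lowest of the 12 values was that of prors1 column 6, and without it the log2 ratio was -1.25. The columns of prors1 array 1 differed by 1.43-fold, and those of the other 3 arrays by 1.02-fold to 1.05-fold.

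PG18, which belongs to the core proteins of plastoglobules and is not a fibrillin, had a ratio of the opposite sign. Its deposited intensity was 0.389, 0.616 and 0.300 on prors1 arrays 1 to 3, against 0.151, 0.0727 and 0.0991 on WT arrays 1 to 3. The groups did not overlap, and prors1 array 2 held the highest value while WT array 2 held the lowest. The means were 0.435 ± 0.16 in prors1 and 0.108 ± 0.040 in WT (SD, n = 3 arrays each), a ratio of 4.04.

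The rank of PG18 within its column moved less than that ratio. Its percentile was 33.0 to 60.3 in the 6 prors1 columns, with a median of 37.9, against 8.95 to 31.4 in the 6 WT columns, with a median of 16.1. The 2 ranges were separated by a narrow gap between the lowest prors1 column and the highest WT column. The log2 ratio of PG18 was 0.99 ± 0.35 (SE, 3 arrays per group) after quantile normalization, or 1.99-fold higher relative to the other probes, and 2.02 ± 0.37 (SE) as deposited. Of all tested probes, 87.3% had a lower ratio after normalization and 89.9% as deposited. PG18 columns of 1 array differed by at most 1.14-fold on 5 arrays and by 1.36-fold on WT array 3.

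**Figure D1:**
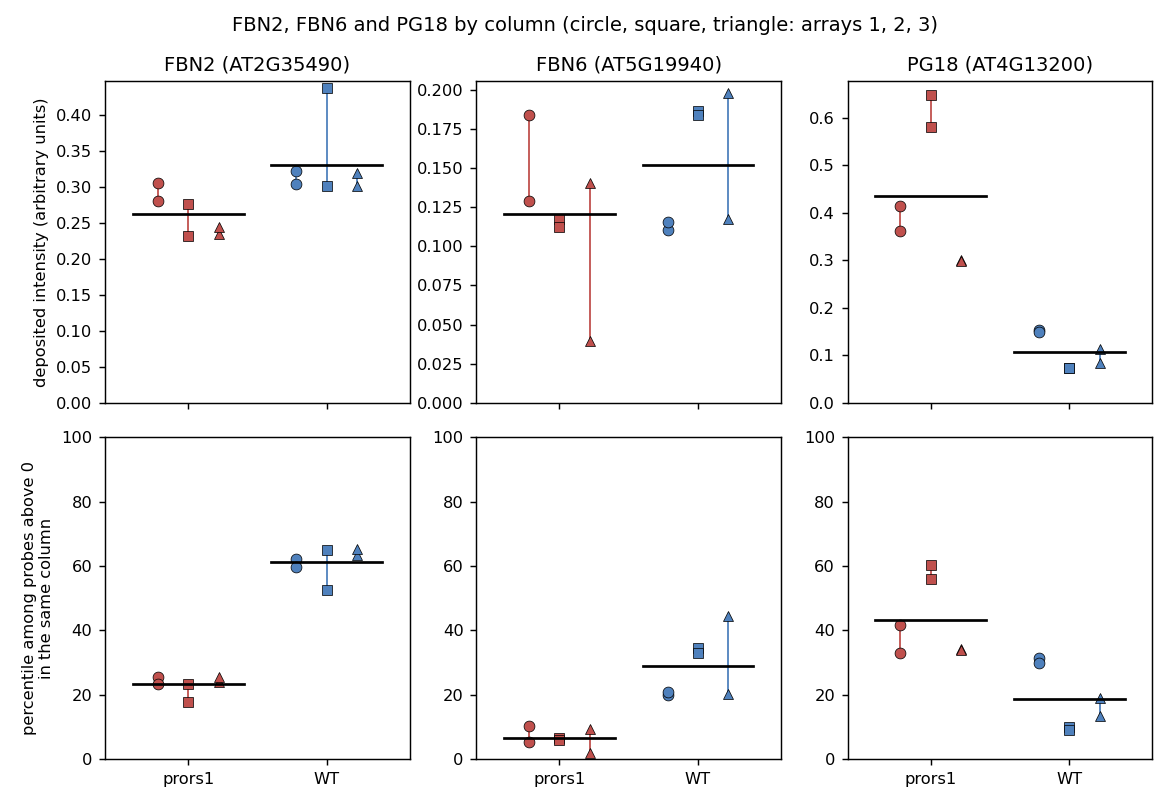
Deposited intensity in arbitrary units (top) and percentile among the probes above 0 in the same column (bottom) for FBN2, FBN6 and PG18 in prors1 (left, red) and WT (right, blue). Each symbol is 1 column, a line joins the 2 columns of 1 array, and the black bar is the mean of the 3 arrays. FBN2 percentiles lie at 17.8 to 25.6 in prors1 and 52.5 to 65.2 in WT, while FBN6 intensities overlap and FBN6 percentiles do not.

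In the limma fit across all probes with quantile normalization, FBN2 and FBN6 were past the threshold of 0.05 on the adjusted p and PG18 was not. That makes 2 of the 3 genes, both lower in prors1, against 26.3% of all 2908 tested probes in either direction, 12.8% higher and 13.5% lower. Since the genes were chosen from this contrast, nothing is read from that count. On the deposited array means FBN2 (lower) and PG18 (higher) did not overlap between the groups. Of all tested probes 5.47% were lower without overlap and 52.5% higher without overlap on that scale. After quantile normalization all 3 genes were free of overlap, as were 24.9% of all tested probes in the lower and 20.9% in the higher direction.

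The calls changed on the values as deposited. There FBN2 and FBN6 were not past the threshold and PG18 was, while 43.0% of all probes were called higher and 2.82% lower. PG18 was also past the threshold without WT array 1, at a log2 ratio of 1.29, and with the 6 columns taken as separate samples.

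**Figure D2:**
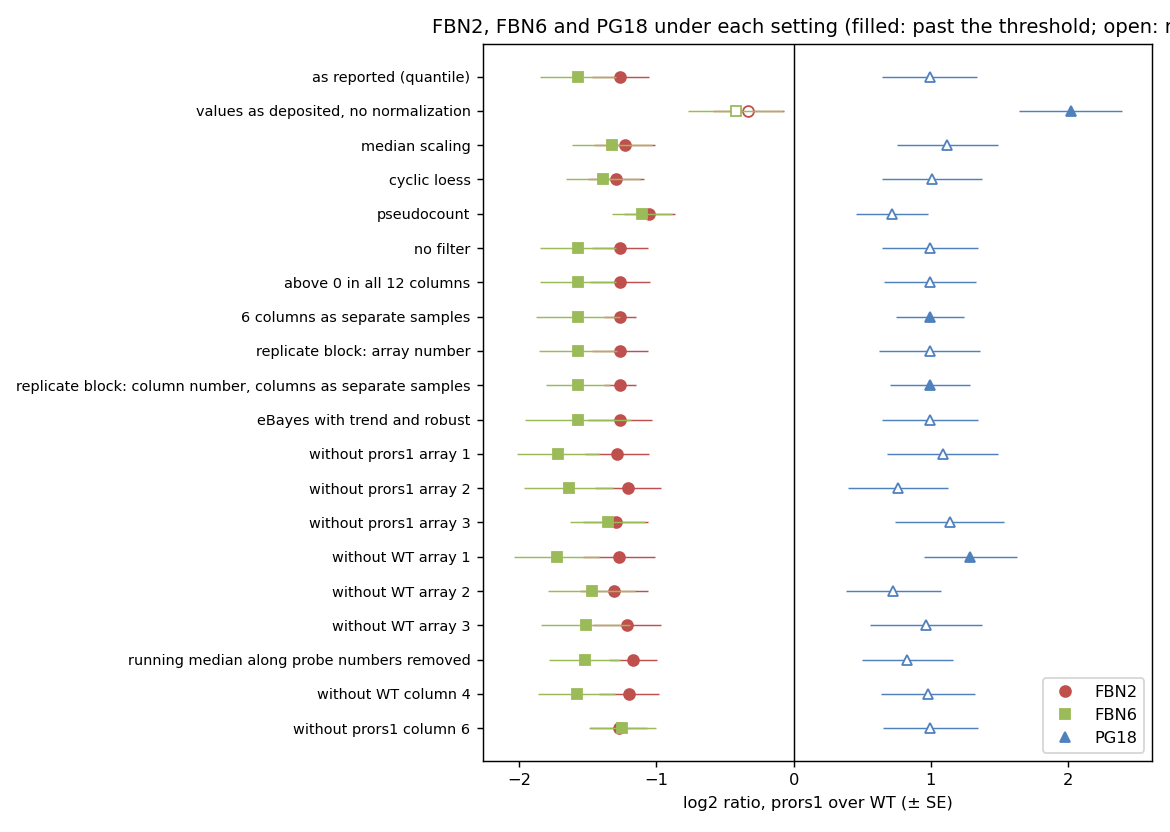
Log2 ratio of prors1 over WT with its standard error for FBN2 (circles), FBN6 (squares) and PG18 (triangles) under each setting of the analysis, 1 setting per line. Filled symbols were past the adjusted p threshold of 0.05 and open ones were not; FBN2 and FBN6 stay below 0 and PG18 above 0 on every line, from -0.33 for FBN2 and -0.42 for FBN6 as deposited to 2.02 for PG18 as deposited.

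The 3 probes lay in the dimmer classes of the array, and the ratio as deposited varied with brightness, which depends on the probe and gives no order of transcript levels between genes. The tested probes were put into 8 classes by their mean intensity over the 6 arrays. FBN2 and PG18 fell into the third dimmest class, with a median log2 ratio as deposited of 1.05 and quartiles of 0.54 and 1.63. FBN6 fell into the dimmest class, with a median of 0.70 and quartiles of 0.15 and 1.36. The ratios of FBN2 and FBN6 lay below the lower quartile of their class, and that of PG18 above the upper quartile. In the brightest class the median was 0.02. After quantile normalization the median log2 ratio was 0.07 in the class of FBN2 and PG18 and -0.50 in that of FBN6. Over all tested probes it was -0.06. The part of this brightness trend in the ratios of FBN2, FBN6 and PG18 was not tested.

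**Figure D3:**
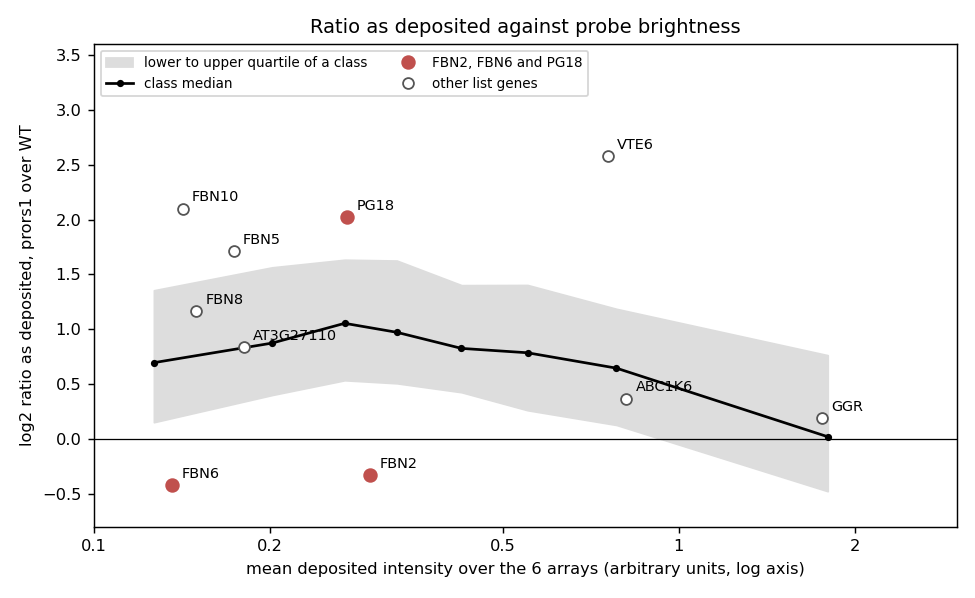
Log2 ratio of prors1 over WT as deposited against mean deposited intensity over the 6 arrays (log axis). The black line joins the medians of 8 brightness classes and the grey band spans their quartiles; FBN2 (-0.33) and FBN6 (-0.42) lie under the band, and PG18 (2.02) lies above it.

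FBN2 and FBN6 followed each other and ran against PG18 across the 12 columns, but this followed the groups. Pearson's r of the quantile-normalized log2 values was 0.80 between FBN2 and FBN6, -0.78 between FBN2 and PG18 and -0.71 between FBN6 and PG18. Taken as deviations from the group means, the same pairs gave -0.15, -0.23 and -0.21. These values describe 12 columns, and the columns counted here as 1 array are not independent.

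Of the 14 fibrillin genes of Arabidopsis listed, 5 had a probe of their own and all 5 were tested, FBN2 and FBN6 included. None of the other 3 passed the test by limma with quantile normalization (0 higher and 0 lower, and 0 at an unadjusted p under 0.05). Of all 2908 tested probes, 26.3% passed it and 1205 were at an unadjusted p under 0.05. As deposited, 2 of the 3, FBN5 and FBN10, were called higher, beside 43.0% of all tested probes. FBN5 (AT5G09820), which binds the solanesyl diphosphate synthases of plastoquinone synthesis, had an intensity of 0.267 ± 0.089 in prors1 and 0.0804 ± 0.022 in WT (SD, n = 3 arrays each). Its log2 ratio was 0.63 ± 0.28 (SE, limma adjusted p = 0.130). As deposited it was 1.71 (limma adjusted p = 0.00437). Array means of the groups did not overlap as deposited and overlapped after normalization, which also held for FBN8 and FBN10. As deposited, 52.5% of all tested probes were higher in prors1 without overlap.

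FBN10 (AT1G51110) averaged 0.235 ± 0.13 in prors1 and 0.0483 ± 0.025 in WT (SD, n = 3 arrays each), with a log2 ratio of 0.88 ± 0.49 (SE, limma adjusted p = 0.217) and of 2.1 as deposited (limma adjusted p = 0.0124). FBN8 (AT2G46910) averaged 0.201 ± 0.027 in prors1 and 0.0983 ± 0.069 in WT (SD, n = 3 arrays each), with a log2 ratio of 0.09 ± 0.44 (SE, limma adjusted p = 0.901) and of 1.17 as deposited (limma adjusted p = 0.0693). For FBN8 and FBN10 1 WT column was listed at 0, which the means include and the ratios leave out. The ratios of FBN5, FBN8 and FBN10 were positive and those of FBN2 and FBN6 negative after normalization. The sign of FBN8 turned when WT array 3 was left out (-0.45). FBN10 stood at percentiles of 2.91, 2.9 and 3.07 in WT columns 1, 2 and 5, among the dimmest probes. Without WT array 1 its log2 ratio was 0.43. The difference between these genes was not tested.

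A further 5 probes list more than 1 gene, all of them fibrillins, and are assigned to none. Of these, 3 were tested, at log2 ratios of -0.07 to 0.37. By limma with quantile normalization 0 were called higher or lower, beside 26.3% of all tested probes. At an unadjusted p under 0.05 there were 0, beside 1205 of the 2908 tested probes. As deposited, 2 of the 3 were called higher, beside 43.0% of all tested probes. The other 2 were listed at 0 in all columns. The tested probe that lists FBN2 with 3 relatives had a log2 ratio of 0.12 ± 0.25 (SE, limma adjusted p = 0.749) and of 0.90 as deposited (limma adjusted p = 0.0318), from intensities of 0.737 ± 0.19 in prors1 and 0.390 ± 0.050 in WT (SD, n = 3 arrays each). Signals of related fibrillins by 1 probe cannot be separated there, and how far the probe of FBN2 alone also binds its relatives was not tested.

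Of the 20 other plastoglobule proteins listed, 4 had a probe of their own and 3 were tested, PG18 included. The remaining 2 did not pass the test (0 higher and 0 lower by limma with quantile normalization, and 0 at an unadjusted p under 0.05). Over all 2908 tested probes the shares were 26.3% called and 1205 at an unadjusted p under 0.05. ABC1K6 (AT3G24190), of a family of atypical kinases, averaged 0.887 ± 0.11 in prors1 and 0.742 ± 0.38 in WT (SD, n = 3 arrays each), with a log2 ratio of -0.21 ± 0.30 (SE, limma adjusted p = 0.631). AT3G27110, a peptidase family protein of plastoglobules, averaged 0.229 ± 0.037 in prors1 and 0.133 ± 0.038 in WT (SD, n = 3 arrays each), with a log2 ratio of -0.19 ± 0.28 (SE, limma adjusted p = 0.638). Both ratios were positive as deposited (0.37 and 0.83). AT1G32220, a flavin reductase-related protein, was above 0 in only 2 prors1 columns and 1 WT column and was not tested.

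Of the 11 genes for prenylquinone and tocopherol synthesis, whose products plastoglobules store, 2 were tested. VTE6 (AT1G78620), the phytyl phosphate kinase that recycles phytol from chlorophyll into tocopherol, rose in prors1. Its intensity was 1.30 ± 0.41 in prors1 and 0.219 ± 0.061 in WT (SD, n = 3 arrays each). On this deposited scale every prors1 column, from 0.983 to 1.82, lay above every WT column, from 0.144 to 0.326. Deposited array means were higher in prors1 without overlap for 52.5% of all tested probes. The log2 ratio of VTE6 was 1.89 ± 0.29 (SE, limma adjusted p = 0.00517), or 3.71-fold, and it stayed called under each of the 19 other settings run. The geranylgeranyl reductase GGR (AT1G74470), which makes the phytyl chain, averaged 1.88 ± 0.20 in prors1 and 1.64 ± 0.019 in WT (SD, n = 3 arrays each), with a log2 ratio of -0.02 ± 0.24 (SE, limma adjusted p = 0.964) and of -0.71 under median scaling (limma adjusted p = 0.0596). None of the 8 jasmonate synthesis genes listed had a probe of its own (0). Over the 4 lists, 1 of the 7 tested genes other than FBN2, FBN6 and PG18 was called, beside 26.3% of all tested probes.

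**Figure D4:**
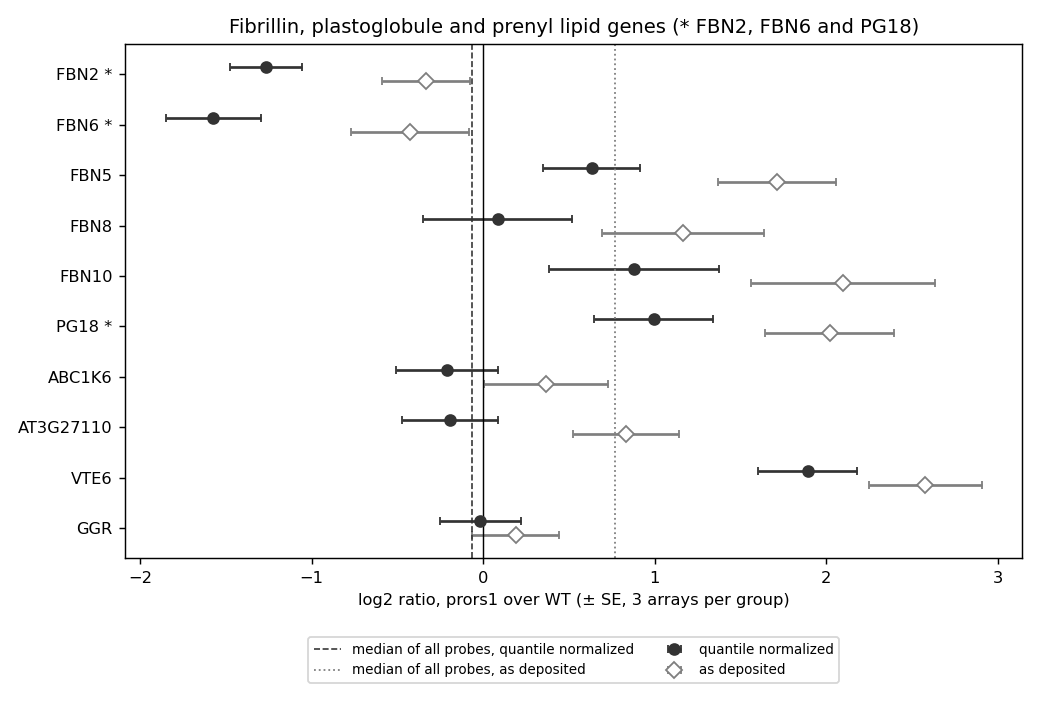
Log2 ratio of prors1 over WT with its standard error (3 arrays per group) for the 10 tested genes of the lists, after quantile normalization (filled circles) and as deposited (open diamonds), with vertical lines at the medians of all probes (-0.06 and 0.77). FBN2 (-1.26) and FBN6 (-1.57) are the 2 genes left of -1, and VTE6 (1.89) lies furthest right after normalization.

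The genes most like each of the 3 were sought by Pearson's r over the 12 columns of quantile-normalized log2 values, among 542 other genes with a probe above 0 in all columns. For FBN2 they were AT1G13970 (r = 0.98), AT5G03370 (0.98) and AT4G15840 (0.97), with log2 ratios of -1.25, -1.02 and -1.43. For FBN6 they were AT3G61870 (0.90), AT3G25410 (0.88) and AT1G27610 (0.87), with log2 ratios of -1.28, -0.62 and -0.61. For PG18 they were XERICO (AT2G04240, 0.94), a RING finger protein of abscisic acid regulation, the plastid lipocalin gene CHL (AT3G47860, 0.90) and AT5G02710 (0.89). Their log2 ratios were 0.52, 1.26 and 1.04. The ratios of AT3G25410, AT1G27610 and XERICO were not past the threshold (limma adjusted p = 0.0658, 0.0991 and 0.126). All these genes were picked for the highest r among the 542, and r by level includes the difference between the groups.

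Other genes came out on top once the group means were removed. For FBN2 the closest were then AT1G04330 (r = 0.83), AT5G53080 (0.79) and AT4G21170 (0.77), with log2 ratios of -1.08, 0.57 and 1.09. For FBN6 they were CBL (AT3G57050, 0.80), the cystathionine beta-lyase of methionine synthesis, PSB27 (AT1G03600, 0.76), a photosystem II repair protein, and AT2G41120 (0.75). The log2 ratios of these were -0.30, 0.15 and -0.44. For PG18 they were AT5G50350 (0.89), AT3G18870 (0.86) and AT2G39670 (0.85), with log2 ratios of -0.33, -0.21 and -0.83. None of the 9 genes most like FBN2, FBN6 and PG18 by level was among the 9 most like them by deviation. Such short lists from 542 candidates would seldom share a gene by chance, so nothing is read from this.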

How the data were processed

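Total RNA of 6 columns titled prors1 and 6 titled WT was measured on a single-channel array. The deposited values are intensities from 0 to 100, and how the authors made them is not given in the sources used here. A total of 0 columns were left unassigned. Values of 0 were set to missing. The logarithms (log2) of the others were quantile normalized across columns in limma 3.58.1 under R 4.3.3, and the mean of the 2 columns of an array was taken. Columns of 1 array correlated across probes at 0.951 to 0.961 in prors1 and 0.902 to 0.915 in WT, against 0.881 to 0.895 and 0.840 to 0.878 for the other pairs of a group. Probes with at least 4 of 6 columns above 0 in each group were fitted (2908) by limma's linear model and moderated test. Its two-sided p was adjusted by Benjamini and Hochberg's method over these probes, and the threshold was 0.05. The procedure was run on simulated data with independent columns. The columns of 1 array are correlated here, so that run does not gauge the error rate on these data.

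Probes were named through the platform annotation of 2016. Of 3439 probes, 692 name 1 gene, 870 several and 1877 none, and 690 of the 692 matched the TAIR10.1 gene table. Coordinates are not printed because the probes come without a named build. Short gene names follow common use for the locus. The genes and lists were chosen with earlier results of these data known. Named are FBN2, FBN6 and PG18, every tested gene of the 4 lists, and for each of the 3 genes the 3 most correlated by level and by deviation. The number of arrays limits the precision. Alternatives covered the normalization, a pseudocount of 0.0595, the filter, the averaging, a replicate block, eBayes with trend and each array left out.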

Additional observations from a re-analysis of the deposited data

Results flagged for a closer look

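In the 10 list genes tested, each with 6 columns per group, 1 of 20 groups held a value far from the others. The FBN2 intensity of WT column 4 was 0.437, and the nearest of the other WT columns was at 0.323, a gap of 0.845 of the whole range, which is above Dixon's critical value for 6 values. With independent values, chance takes about 1 of 20 groups past that critical value of 0.625, and the columns of 1 array are not independent. How often chance gives a gap as wide as 0.845 was not tested. The other column of the same array read 0.302.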

How the results depend on the processing

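Of the 19 other settings, 3 were chosen after the data were seen: removal of a running median along 50 probe numbers on either side, and the omission of WT column 4 or prors1 column 6. FBN2, FBN6 and PG18 kept their direction in all 19. A planned comparison with a second probe of each gene was not run, because each has 1 probe of its own. As deposited their log2 ratios were -0.33, -0.42 and 2.02, and with the pseudocount FBN2 and FBN6 were at -1.05 and -1.10. Leaving out 1 array or column gave -1.31 to -1.20 for FBN2, -1.73 to -1.25 for FBN6 and 0.73 to 1.29 for PG18. The count of 764 changed probes (372 higher, 392 lower) became 1332 as deposited (1250 and 82), 1443 with columns as separate samples (644 and 799), and 393 to 731 with 1 array or column left out (198 to 353 higher, 180 to 378 lower). It was lowest without prors1 array 2 (393), WT array 3 (446), prors1 array 1 (465) and WT array 1 (486). These fits hold 5 arrays.

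With the array number as a replicate block 840 probes were called (400 higher, 440 lower), and the calls of FBN2, FBN6 and PG18 stayed as they were. With the column number as a block and columns as separate samples 1532 were called (686 and 846), PG18 among them. Equally numbered arrays of the groups deviated together at r = 0.18, 0.08 and 0.24. The second lies under 0.1, and the samples are not treated as paired. Each prors1 array did correlate best with the equally numbered WT array, at most a hint of pairing. Deviations from a group mean cancel out within the group, so these matches depend on each other and cannot decide whether samples were paired. The list genes called numbered 1, but 3 as deposited and 2 with columns as separate samples, with the column block and with the running median removed, where FBN5 was added each time. Signs turned as deposited for ABC1K6 (0.37), AT3G27110 (0.83) and GGR (0.19). Under median scaling GGR was at -0.71. It also turned under cyclic loess (0.036) and running median removal (0.11), and ran from -0.16 to 0.099 with 1 array or column left out. FBN8 turned with columns as separate samples (-0.13) and with the column block (-0.16), and ran from -0.45 to 0.36 with 1 left out. Beyond this the cause was not tested.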
